A study of Mus musculus with 8 samples.

Results

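The 6 genes described here belong to the immunoglobulin heavy chain locus (Igh) of the mouse: the J segments Ighj1, Ighj2, Ighj3 and Ighj4, the D segment Ighd4-1, and Ighd, the constant gene of IgD. They were taken by name from a list, with no threshold on their counts but with earlier results of these data known, and all 6 were found among the 27179 genes of the count table. RNA depleted of ribosomal RNA was sequenced from early large pre-B (early LPre-B) and small pre-B (sPre-B) cells sorted from bone marrow. Ctrl mice were Upf1 Flox/Flox, Mb1 +/+ and Igh B1-8hi/+, and cKO mice were Upf1 Flox/Flox, Mb1 Cre/+ and Igh B1-8hi/+, so that every group carried floxed Upf1 and 1 copy of the prearranged heavy chain allele B1-8hi. Mb1-Cre is expressed from the Cd79a locus in the B lineage. The animals were adult and age-matched, of both sexes. Each of the 4 groups had 2 libraries, and the labels do not say which libraries share an animal, so that p-values measure the spread between these libraries.

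A heavy chain variable exon is assembled in developing B cells when RAG1 and RAG2 join a D to a J segment and then a V segment to the DJ unit. The J segment supplies the last stretch of the variable exon, which is spliced to the exons of a constant gene, first Ighm for IgM and, by alternative processing of a long transcript, Ighd for IgD. Ighd4-1 (also called DQ52) lies closest to the J segments, and transcripts of the unrearranged locus can start beside it. The B1-8 variable exon is known to derive from Ighv1-72, Ighd1-1 and Ighj2, and the second Igh allele of these mice is not prearranged. UPF1 is an RNA helicase of nonsense-mediated decay, a pathway that degrades transcripts with premature stop codons, which joining out of frame often creates.

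All members lie on the minus strand of chromosome 12 in GRCm38 (mm10). The J segments are coding sequence of 48 to 54 bases that RefSeq places at chr12:113429781-113429833 (Ighj1, Entrez 777648), chr12:113429468-113429515 (Ighj2, 777654), chr12:113429085-113429132 (Ighj3, 777655) and chr12:113428514-113428567 (Ighj4, 777656). Ighd4-1 (777661) is a coding segment of 11 bases at chr12:113430528-113430538, 694 bases upstream of Ighj1. Between neighbouring J segments lie 265, 335 and 517 bases, and Ighm begins 5783 bases after Ighj4. Ighd (380797) spans exons and introns at chr12:113407535-113416324 and starts 2501 bases downstream of Ighm.

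The sequences of the J segments and of Ighd4-1, printed 5′ to 3′ from GENCODE vM21, are shown because Ighj1 and Ighd4-1 were higher and Ighj3 and Ighj4 lower in cKO early LPre-B cells, while Ighj2 did not pass the test. Capitals mark the first stretch of 12 bases that opens with a run shared by all J segments, CTGGGGNNNAGG with N where they differ, which covers the codons of the Trp-Gly-X-Gly conserved in the variable domain, but for the last base.
Ighj1: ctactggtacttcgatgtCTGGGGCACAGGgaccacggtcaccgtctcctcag
Ighj2: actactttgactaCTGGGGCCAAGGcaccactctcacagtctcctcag
Ighj3: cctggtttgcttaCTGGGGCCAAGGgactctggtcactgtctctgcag
Ighj4: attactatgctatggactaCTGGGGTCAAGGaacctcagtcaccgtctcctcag
Ighd4-1: ctaactgggac

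All 4 J segments hold this motif by construction, as do 0.129% of the first 54 bases of 141179 transcripts outside the immunoglobulin genes, both strands searched. Aligned on the motif without gaps, pairs of J segments are identical at 62.5% (Ighj3 and Ighj4) to 75% (Ighj1 and Ighj2, and Ighj2 and Ighj4) of their bases. A sequenced fragment is longer than any of these segments, and strand was not used in the counting. The counts therefore do not tell a spliced VDJ transcript from one of an unrearranged or DJ-joined allele, nor sense from antisense RNA. How fragments that overlap several of these genes were counted is not given in the sources used here.

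Library totals were between 68516857 and 160426338 counts, at which 3 counts correspond to 0.0187 to 0.0438 CPM (counts scaled to library size). Levels below are CPM after TMM normalization. The gene-level count of Upf1, the targeted gene, was not lower where the label is cKO. It was 213 to 237 CPM in Ctrl and 244 to 258 CPM in cKO early LPre-B libraries, and 186 to 198 CPM and 282 to 293 CPM in the sPre-B libraries, and it covers exons outside the deleted part, so that it does not check the genotype. Cd79a, the gene at the Mb1-Cre locus, had 160 to 188 CPM in cKO against 543 to 640 CPM in early LPre-B cells of Ctrl mice, and 325 to 405 against 1478 to 1602 CPM in sPre-B cells. Both Ctrl replicate 2 libraries had at most 304 Xist counts and at least 19733 counts over 4 Y-linked genes, against at least 290740 and at most 34 in the other 6 libraries. In Ctrl cells 6 of 6 early large pre-B markers were lower and 4 of 4 small pre-B markers higher at the sPre-B stage.

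**Figure D1:**
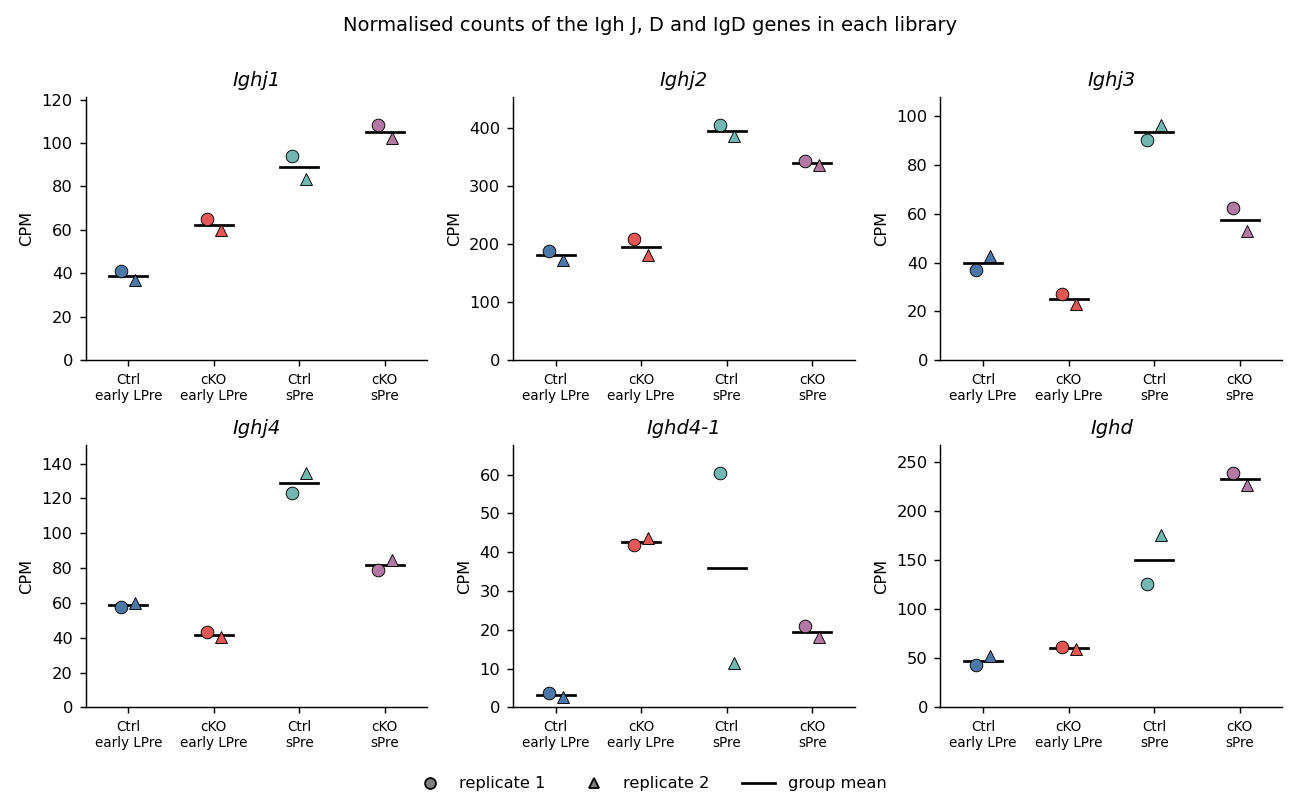
Normalised counts (CPM, linear axes from 0) of each member in the 8 libraries, with a circle for replicate 1, a triangle for replicate 2 and a line at the group mean. Ighj3 and Ighj4 lie lower in cKO than in Ctrl at both stages, Ighj1 and Ighd do not, and Ighd4-1 has its lowest values in Ctrl early LPre-B cells and a wide gap between the Ctrl sPre-B libraries.

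The J segments rose by about the same factor from early LPre- to sPre-B cells of Ctrl mice. All 6 members were higher in sPre-B than in early LPre-B libraries of Ctrl mice at an adjusted p under 0.05, by the quasi-likelihood test of edgeR with Benjamini-Hochberg adjustment over 17700 genes (below, edgeR adjusted p), where 60.2% of all genes passed and 29.1% of all genes passed in this direction. Their median log2 fold change was 1.21, against 0.02 over all genes. In bulk RNA, more cells of a type and more RNA per cell cannot be told apart.

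Ighj2, the J segment of the B1-8 exon, had 188 and 173 CPM in Ctrl early LPre-B replicates 1 and 2 and 404 and 386 CPM in Ctrl sPre-B cells. Both sPre-B libraries were above both early LPre-B libraries, with a log2 fold change of 1.13 ± 0.11 (SE, edgeR adjusted p = 3.29e-05). Ighj1 had 41.0 and 36.7 CPM against 94.3 and 83.6 CPM, a 2.29-fold difference. Ighj3, with 36.9 and 42.9 CPM against 90.5 and 96.3 CPM, was 2.34-fold higher in sPre-B cells. The levels of Ighj4 were 57.7 and 60.2 CPM against 123 and 135 CPM, a 2.19-fold difference. For none of the 6 members did the libraries of the 2 stages overlap in Ctrl mice, where 80.8% of all genes tested had no overlap. The standard errors of the log2 fold changes of the J segments were 0.09 to 0.12. Ighm, the constant gene they are spliced to, was 2.08-fold higher and Ighv1-72, the V segment of B1-8, 2.13-fold higher in the same comparison.

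In cKO mice the stage difference of the J segments was 1.69-fold for Ighj1, 1.74-fold for Ighj2, 2.31-fold for Ighj3 and 1.95-fold for Ighj4. Of the 6 members, 5 were higher in sPre-B than in early LPre-B libraries of cKO mice at an edgeR adjusted p under 0.05, where 62.6% of all genes passed and 31.6% of all genes passed in this direction. The exception was Ighd4-1. The libraries of the 2 stages did not overlap for any of the 6 members in cKO mice either, nor for 83.1% of all genes tested. The test of whether the stage difference itself differed between genotypes gave edgeR adjusted p-values of 0.118 for Ighj1, 0.253 for Ighj2, 0.967 for Ighj3 and 0.513 for Ighj4.

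Markers of myeloid cells moved with stage and, in part, with genotype. Their summed level was 23.7 to 36.7 CPM in Ctrl early LPre-B, 14.4 to 19.6 CPM in cKO early LPre-B, 75.7 to 92.7 CPM in Ctrl sPre-B and 31.1 to 66.6 CPM in cKO sPre-B libraries. Of the 6 myeloid markers 3 were higher in sPre-B cells of Ctrl mice and 4 in those of cKO mice. Between genotypes 1, Lyz2 (lysozyme), was lower in cKO early LPre-B cells (log2 -1.39, edgeR adjusted p = 0.0158) and the part of these markers in the members' differences was not tested. T cell markers summed to at most 1.76 CPM in any library, with Cd3g at 0 in Ctrl replicate 2 of both stages, and erythroid markers to 4.27 to 4.51 CPM in Ctrl and 1.32 to 2.43 CPM in cKO early LPre-B, and 6.77 to 8.88 CPM in Ctrl and 2.54 to 3.44 CPM in cKO sPre-B libraries. Of the 3 erythroid markers 1, Hbb-bs, a beta globin, was lower in cKO at both stages (adjusted p = 0.00785 and 0.00838, edgeR), and their part in the members' differences was not tested.

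Between genotypes the J segments split. Ighj1, the most upstream, was higher in cKO than in Ctrl early LPre-B cells, Ighj3 and Ighj4, the most downstream, were lower, and Ighj2 between them did not pass the test. Of the 6 members, 4 passed at an adjusted p under 0.05 in this comparison, 2 higher (Ighj1 and Ighd4-1) and 2 lower (Ighj3 and Ighj4), where 31.3% of all genes passed, 14.5% higher and 16.9% lower.

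The stage markers moved between genotypes as well. Early large pre-B markers summed to 3400 to 3582 CPM in cKO against 5512 to 5733 CPM in Ctrl early LPre-B cells, with 3 of 6 lower (Kit, Spn and Dntt) and 0 higher, and small pre-B markers to 366 to 387 CPM against 599 to 601 CPM, with 2 of 4 lower (Rag1 and Il2ra) and 1 higher (Igkc). In sPre-B cells the small pre-B markers summed to 3233 to 3459 CPM in cKO against 4328 to 4782 CPM in Ctrl, with 1 of 4 higher and 1 lower. The early large pre-B markers there summed to 731 to 837 CPM in cKO and 424 to 797 CPM in Ctrl, with 2 of 6 higher and 1 lower. The part of these markers in the members' genotype differences was not tested.

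Ighj1 had 65.0 and 59.8 CPM in cKO early LPre-B cells against 41.0 and 36.7 CPM in Ctrl, and both cKO libraries were above both Ctrl libraries. The log2 fold change was 0.68 ± 0.10 (SE, edgeR adjusted p = 0.00148). In sPre-B cells the values were 108 and 102 CPM in cKO against 94.3 and 83.6 CPM in Ctrl, without overlap but with a smaller log2 difference of 0.24 ± 0.10 that missed the threshold (edgeR adjusted p = 0.0889).

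Ighj3 showed the opposite order at both stages. Its cKO early LPre-B libraries had 26.9 and 23.0 CPM against 36.9 and 42.9 CPM in Ctrl, a log2 fold change of -0.68 ± 0.12 (SE, edgeR adjusted p = 0.00419). Without both Ctrl replicate 2 libraries, the male ones by their Y-linked counts, this difference was -0.51 and missed the threshold (edgeR adjusted p = 0.0586). In sPre-B cells Ighj3 had 62.3 and 52.9 CPM in cKO against 90.5 and 96.3 CPM in Ctrl, a log2 fold change of -0.70 ± 0.12 (edgeR adjusted p = 0.00301).

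Ighj4 followed Ighj3. It had 43.3 and 40.3 CPM in cKO against 57.7 and 60.2 CPM in early LPre-B cells of Ctrl mice, a log2 fold change of -0.49 ± 0.09 (SE, edgeR adjusted p = 0.00387). In sPre-B cells 78.8 and 84.6 CPM in cKO stood against 123 and 135 CPM in Ctrl, a log2 fold change of -0.66 ± 0.09 (edgeR adjusted p = 8.25e-04). For Ighj3 as for Ighj4, the cKO and Ctrl libraries of a stage did not overlap. This held for 5 of the 6 members at each stage, against 66.3% of all genes tested in early LPre-B and 70.8% in sPre-B cells.

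Ighj2 was the J segment with the smallest difference between genotypes in early LPre-B cells, and in sPre-B cells its difference was close in size to that of Ighj1. Its cKO early LPre-B libraries, at 209 and 181 CPM, overlapped the Ctrl libraries at 188 and 173 CPM, with a log2 fold change of 0.11 ± 0.11 (SE, edgeR adjusted p = 0.460). In sPre-B cells 343 and 335 CPM in cKO lay below 404 and 386 CPM in Ctrl, a log2 difference of -0.22 ± 0.11 that missed the threshold (edgeR adjusted p = 0.142). Ighv1-72 had 208 to 218 CPM in cKO and 205 to 236 CPM in early LPre-B cells of Ctrl mice, and 462 to 538 CPM against 469 to 471 CPM in sPre-B cells, and passed the test in neither comparison (adjusted p = 0.773 and 0.597, edgeR).

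Of the 6 members, 3 passed between genotypes in sPre-B cells, Ighd higher and Ighj3 and Ighj4 lower, where 34.7% of all genes passed, 19.8% higher and 14.9% lower. The genotype comparisons of the 2 stages share no library, but every group also enters a stage comparison.

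**Figure D2:**
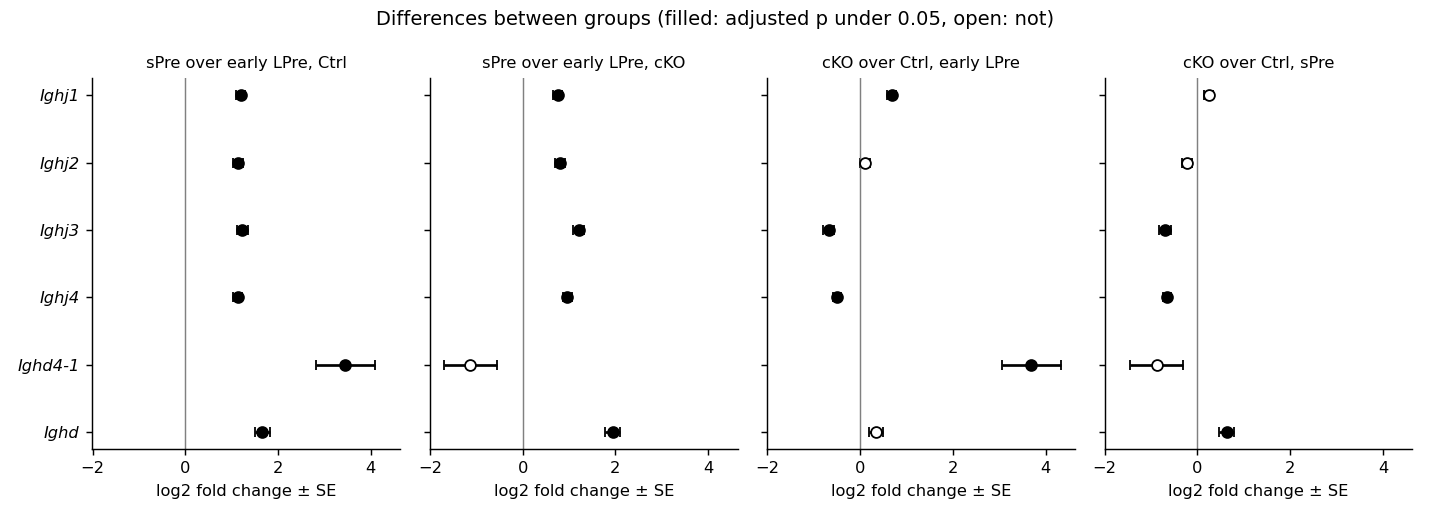
Log2 fold change with its standard error (horizontal bars) of each member in the 4 comparisons, from the edgeR fit to all 8 libraries, with filled circles at an adjusted p under 0.05. The J segments lie together in the stage comparisons, between 0.75 and 1.23, and on both sides of 0 in the genotype comparisons, and the bars of Ighd4-1 are the longest.

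The make-up of the J counts within a library shows the same split without any scaling between libraries. Ighj2 held more than any other J segment in every library, with 55.1% to 60.7% of the summed Ighj counts. These sums were 24366 to 71919 counts, for which the 95% Wilson interval of a share had a half-width of at most 0.624 percentage points, counting error only. Ighj1 held 12.2% ± 0.644 (SD, n = 2) in Ctrl and 19.3% ± 0.532 in cKO early LPre-B cells, and 12.6% ± 0.928 in Ctrl and 18.0% ± 0.326 in cKO sPre-B cells. The share of Ighj3 was 12.6% ± 1.64 in Ctrl and 7.69% ± 0.193 in cKO early LPre-B cells, and in sPre-B cells it was 13.2% ± 0.734 and 9.86% ± 0.925. Ighj4 held 18.6% ± 1.03 and 12.9% ± 0.458 in early LPre-B cells of Ctrl and cKO mice, and 18.2% ± 1.38 and 14.0% ± 0.997 in their sPre-B cells. The cKO and Ctrl libraries did not overlap in the share of any of these 3 segments at either stage. The shares are given without a test.

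**Figure D3:**
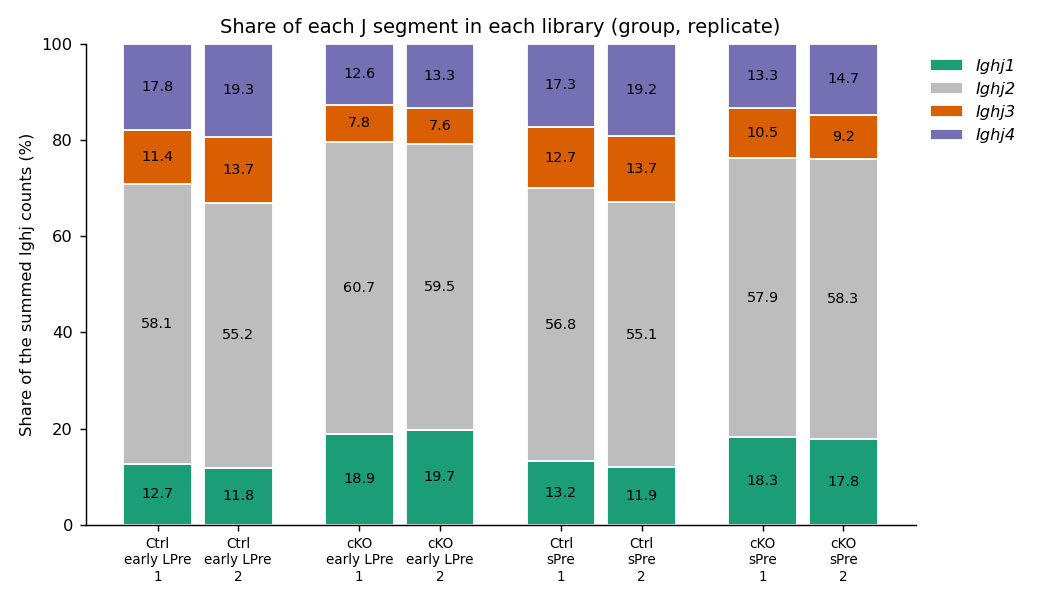
Share of each J segment in the summed Ighj counts (percent, stacked to 100) in each library, with the values printed in the bars. Ighj1 takes 11.8% to 13.2% in the 4 Ctrl libraries and 17.8% to 19.7% in the 4 libraries labelled cKO, while Ighj3 and Ighj4 take less in cKO.

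Per base of annotated length the order of the J segments depended on genotype only among the 3 lower ones. In Ctrl early LPre-B cells Ighj2 had 3757 ± 230 CPM per kilobase (SD, n = 2), followed by Ighj4 with 1092 ± 32.8, Ighj3 with 831 ± 87.2 and Ighj1 with 733 ± 57.3. The libraries of Ighj3 and Ighj1 overlapped in that group on this scale. In cKO early LPre-B cells Ighj2 had 4061 ± 404 CPM per kilobase, followed by Ighj1 with 1177 ± 69.1, Ighj4 with 775 ± 39.4 and Ighj3 with 520 ± 57.9. By these means Ighj1 was second in cKO and last in Ctrl early LPre-B cells, and the same held in sPre-B cells, at 1986 ± 78.5 and 1678 ± 143 CPM per kilobase.

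The ratio of Ighj1 to Ighj3 counts set the genotypes apart at both stages. It pairs a segment found higher in cKO early LPre-B cells with one found lower, from the same counts, and so restates those differences. There were 1.11 and 0.856 Ighj1 counts per Ighj3 count in Ctrl early LPre-B and 1.04 and 0.868 in Ctrl sPre-B cells, against 2.41 and 2.60 in cKO early LPre-B and 1.74 and 1.93 in cKO sPre-B cells. The lowest cKO library was thus above the highest Ctrl library. Between Ighj3 and Ighj4 the ratio was 0.570 to 0.791 over the 8 libraries. The genotypes did not overlap in early LPre-B cells, at 0.640 and 0.712 in Ctrl against 0.621 and 0.570 in cKO. They overlapped in sPre-B cells, at 0.736 and 0.715 in Ctrl against 0.791 and 0.626 in cKO. All J segments summed to 8.71 to 9.69 counts per 100 Ighm counts, and Ighj2 alone to 5.06 to 5.50, so that Ighj2 counts kept nearly the same proportion to Ighm counts in every library.

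**Figure D4:**
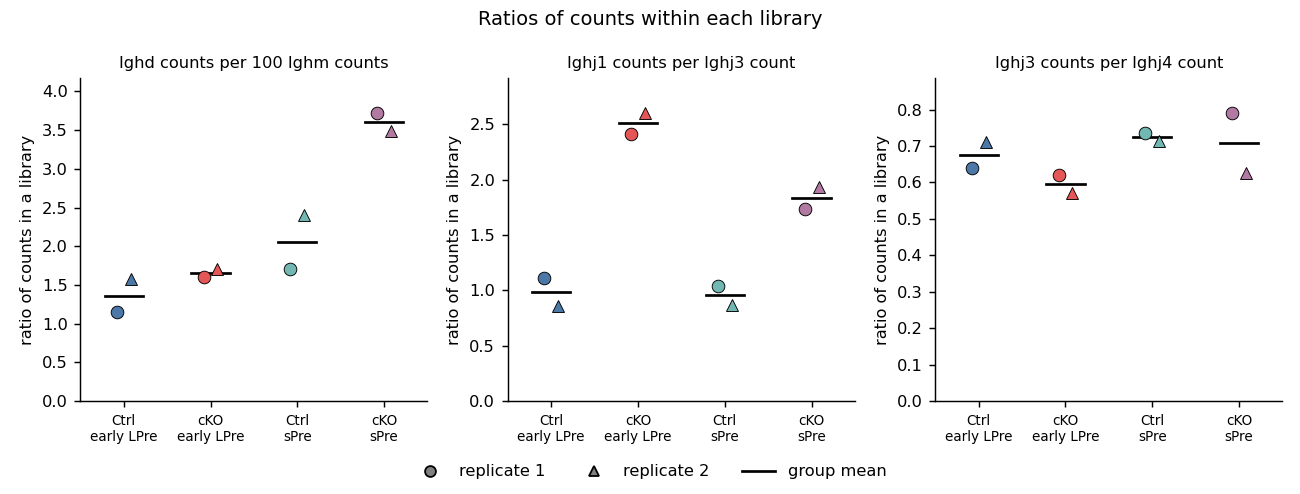
Ratios of counts within each library (linear axes from 0), with a circle for replicate 1, a triangle for replicate 2 and a line at the group mean. Ighd counts per 100 Ighm counts are highest in cKO sPre-B cells. The Ighj1 to Ighj3 ratio separates the genotypes at both stages, and the Ighj3 to Ighj4 ratio only in early LPre-B cells.

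Ighd4-1 was lowest in Ctrl early LPre-B cells. It had 3.76 and 2.79 CPM there, from 520 and 218 counts, against 41.8 and 43.6 CPM in cKO early LPre-B cells, from 4551 and 5668 counts. Each cKO library was more than 10 times above each Ctrl library, and the log2 fold change was 3.70 ± 0.64 (SE, edgeR adjusted p = 0.00332), a 13.0-fold difference. Relative to the J segments, Ighd4-1 had 1.16 and 0.895 counts per 100 summed Ighj counts in Ctrl and 12.2 and 14.3 in cKO early LPre-B cells. In sPre-B cells the same ratio was 8.49 and 1.63 in Ctrl and 3.53 and 3.17 in cKO libraries.

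The Ctrl sPre-B libraries disagreed on Ighd4-1 by a factor of 5.29, with 60.5 CPM (5114 counts) in replicate 1 and 11.4 CPM (806 counts) in replicate 2. Both were above the Ctrl early LPre-B libraries, with a log2 fold change of 3.45 ± 0.63 (SE, edgeR adjusted p = 0.00149). Without Ctrl sPre-B replicate 1 this was 1.86, and without replicate 2 it was 4.26, past the threshold in either case.

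In cKO mice Ighd4-1 went the other way with stage, with 20.9 and 18.2 CPM in sPre-B against 41.8 and 43.6 CPM in early LPre-B cells. The sPre-B libraries lay below both early LPre-B libraries, but the log2 difference of -1.13 ± 0.57 missed the threshold (edgeR adjusted p = 0.116). When only the 4 cKO libraries were fitted, so that the spread of the Ctrl sPre-B libraries did not enter, the value was -1.17 ± 0.10 with an adjusted p of 2.23e-04 (edgeR). Between genotypes in sPre-B cells the Ighd4-1 value was -0.88 ± 0.57 and missed the threshold (edgeR adjusted p = 0.268). The cKO libraries there lay between the 2 Ctrl libraries, and the difference passed the threshold in opposite directions without 1 of them, at 0.74 without Ctrl replicate 1 (adjusted p = 0.0286) and -1.66 without Ctrl replicate 2 (adjusted p = 6.18e-04, both edgeR).

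The stage difference of Ighd4-1 differed between the genotypes by -4.58 ± 0.85 on the log2 scale (edgeR adjusted p = 0.0269). It was the 1 member of 6 called in that test, where 4.24% of all genes passed, which is 1.6% of all genes in this direction and 2.64% in the opposite one. The call of Ighd4-1 was lost when any of the 6 libraries outside the Ctrl sPre-B group was left out, with values from -4.89 to -4.47 and adjusted p-values of 0.0639 to 0.102 (edgeR), and kept without Ctrl sPre-B replicate 1 (-3.004) or replicate 2 (-5.40).

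Other D segments also differed widely between libraries of a group. Of the 9 in the table, 8 passed the expression filter, and Ighd3-1 had 0 counts in every library but cKO sPre-B replicate 1, which had 3. The highest D segment by count was Ighd2-4 and Ighd2-7 in Ctrl early LPre-B replicates 1 and 2, and Ighd1-1 and Ighd2-7 in Ctrl sPre-B replicates 1 and 2. It was Ighd4-1 in both cKO early LPre-B libraries, at 49.2% and 34.3% of all D segment counts, against 3.67% and 2.79% in Ctrl early LPre-B cells. In cKO sPre-B cells it was Ighd3-2 in replicate 1 (53.4% of D segment counts) and Ighd1-1 in replicate 2 (68.1%).

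Ighd3-2, the nearest D segment upstream of Ighd4-1 in the table at a distance of 17675 bases, had 90.1 and 2.33 CPM in the cKO sPre-B libraries, a 38.7-fold gap within a group. Ighd1-1, the D segment of the B1-8 exon, had 28.2 and 9.65 CPM in Ctrl early LPre-B, 10.2 and 25.2 CPM in cKO early LPre-B, 83.9 and 33.5 CPM in Ctrl sPre-B and 14.6 and 119 CPM in cKO sPre-B cells. Their sequences from GENCODE vM21 are printed because their counts are set beside those of Ighd4-1.
Ighd1-1: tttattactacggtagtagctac
Ighd3-2: agacagctcaggctac

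Ighd1-1 lies at chr12:113482170-113482192 and Ighd3-2 at chr12:113448214-113448229, on the minus strand. None of the 8 other D segments passed the test between genotypes in early LPre-B cells, and 1, Ighd2-7, was lower in cKO sPre-B cells (5.44 and 3.52 CPM against 32.7 and 61.8 CPM in Ctrl, adjusted p = 0.0189, edgeR). Their log2 fold changes in early LPre-B cells ran from -2.30 (Ighd3-2) to 2.70 (Ighd2-8), with standard errors of 0.31 to 1.58. The median was 0.07, against 3.70 for Ighd4-1. Ighd2-5 and Ighd2-6 have identical sequences of 17 bases, and how fragments were assigned between them is not given in the sources used here. J segments and Ighd were far closer between libraries of a group, with a gap of at most 1.39-fold.

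**Figure D5:**
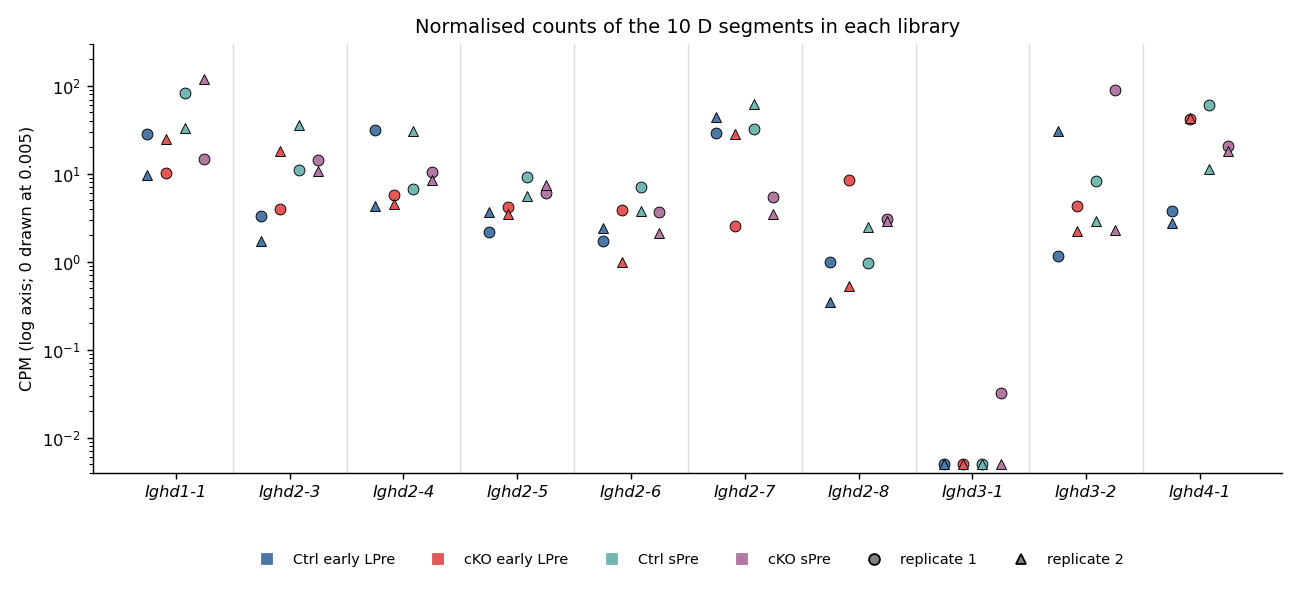
Normalised counts (CPM, log axis, with 0 drawn at 0.005) of the 10 D segments in the table, coloured by group, with a circle for replicate 1 and a triangle for replicate 2. The pair of cKO early LPre-B values of Ighd4-1 nearly coincide far above the Ctrl early LPre-B pair, while Ighd3-2 and Ighd1-1 differ widely within groups.

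Ighd, the constant gene of IgD, rose with stage in both genotypes and was highest in cKO sPre-B cells. It had 42.9 and 52.2 CPM in Ctrl early LPre-B, 61.8 and 59.2 CPM in cKO early LPre-B, 126 and 175 CPM in Ctrl sPre-B and 239 and 226 CPM in cKO sPre-B cells. No libraries of different groups overlapped. The stage difference was 3.17-fold in Ctrl (log2 1.66 ± 0.16 SE, adjusted p = 3.41e-05) and 3.84-fold in cKO mice (1.94 ± 0.16, adjusted p = 1.60e-05), both edgeR. These did not differ between genotypes beyond the threshold (interaction 0.28 ± 0.22, adjusted p = 0.524, edgeR).

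Between genotypes Ighd was 1.55-fold higher in cKO sPre-B cells, with a log2 fold change of 0.63 ± 0.16 (SE, edgeR adjusted p = 0.0142). The call was lost without Ctrl sPre-B replicate 1 (0.37, adjusted p = 0.0913) and without cKO sPre-B replicate 1 (0.59, adjusted p = 0.0685, both edgeR). In early LPre-B cells the log2 difference was 0.35 ± 0.16 and missed the threshold (edgeR adjusted p = 0.121), but passed it at 0.42 when only the 4 early LPre-B libraries were fitted (edgeR adjusted p = 0.0400). It also passed without both Ctrl replicate 2 libraries, at 0.55 (edgeR adjusted p = 0.0142), and at 0.39 without either Ctrl sPre-B library (edgeR adjusted p = 0.0329 and 0.0332).

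Relative to Ighm, with which it shares its primary transcript, Ighd had 1.15 and 1.57 counts per 100 Ighm counts in Ctrl early LPre-B, 1.60 and 1.71 in cKO early LPre-B, 1.71 and 2.40 in Ctrl sPre-B and 3.72 and 3.48 in cKO sPre-B cells. The means were 1.36 ± 0.297, 1.65 ± 0.0790, 2.06 ± 0.486 and 3.60 ± 0.167 (SD, n = 2 each). The cKO sPre-B libraries stood above all others, and cKO early LPre-B replicate 2 and Ctrl sPre-B replicate 1 had nearly the same ratio. Ighm itself had 7350 and 7293 CPM in Ctrl and 6410 and 6496 CPM in cKO sPre-B cells and passed the test in neither genotype comparison (adjusted p = 0.473 and, in early LPre-B cells, 0.836, edgeR).

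IgD marks mature B cells, and markers of mature or recirculating B cells were examined beside Ighd. Of 6 such genes 2 were higher in cKO than in Ctrl sPre-B cells, Fcer2a (CD23, a low-affinity IgE receptor) and Cr2 (a complement receptor), and 1, Tnfrsf13c (the BAFF receptor), was lower. Fcer2a had 83.8 and 29.9 CPM in cKO against 6.03 and 5.33 CPM in Ctrl sPre-B cells, a 9.99-fold difference (edgeR adjusted p = 7.35e-04). The 6 genes summed to 220 and 253 CPM in Ctrl and to 302 and 180 CPM in cKO sPre-B replicates 1 and 2, so that the cKO libraries lay on either side of Ctrl, and to 78.9 to 79.4 CPM in Ctrl and 60.7 to 72.9 CPM in cKO early LPre-B cells, with Ccr6 at no more than 0.21 CPM in any library. The sPre-B gate of the study took cells without surface IgM and with CD25 and CD2, and the purity of the sorted cells was not measured here. The part of these markers in the Ighd difference was not tested.

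Of 4 genes listed for IgM to IgD processing, 1 was higher and 1 lower in cKO sPre-B cells. Zfp318, a nuclear factor known to be required for Ighd transcripts in mature B cells, had 45.4 and 50.2 CPM in cKO against 68.7 and 82.0 CPM in Ctrl sPre-B cells, a log2 fold change of -0.66 ± 0.11 (SE, edgeR adjusted p = 0.00266), while Ighd was higher in the same cells. With stage 2 of the 4 genes were higher and 2 lower in each genotype. Zfp318 was higher in both, as Ighd was, at log2 1.24 in Ctrl and 0.49 in cKO mice. Hnrnpll, an RNA-binding protein, was the higher one, at a low level of 1.06 and 1.03 CPM against 0.57 and 0.61 CPM. It was also higher in cKO early LPre-B cells, at 8.86 and 9.92 CPM against 3.77 and 4.20 CPM (log2 1.24, edgeR adjusted p = 0.00114). Cstf2 and Ell2, of 3′ end cleavage and of elongation, passed in neither genotype comparison. With stage Ell2 was higher in both genotypes. Hnrnpll was lower, at log2 -2.76 in Ctrl and -3.16 in cKO mice, and so was Cstf2, at -1.29 and -1.18.

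Among the 7 other constant genes, 3 were higher in cKO than in Ctrl sPre-B cells and 2 of these, Ighg2b and Ighg2c, also in early LPre-B cells. Ighg2b, of IgG2b, had 204 and 108 CPM in cKO against 1.96 and 2.60 CPM in Ctrl sPre-B cells, and 46.5 and 24.6 CPM against 4.54 and 2.74 CPM in early LPre-B cells. The log2 fold changes were 6.10 ± 0.47 (adjusted p = 6.24e-05) and 3.27 ± 0.41 (adjusted p = 7.01e-04) by edgeR. Ighg2c had 759 and 420 counts in cKO sPre-B cells against 0 and 2 in Ctrl, and Ighg1 had 545 and 386 against 42 and 58. Igha had 1477 and 1214 counts in Ctrl replicate 1 of early LPre- and sPre-B cells and at most 60 in the other 6 libraries, and passed no genotype test (adjusted p = 0.0575 in early LPre-B and 0.156 in sPre-B cells, edgeR). Jchain, the joining chain of IgA and IgM and a plasma cell marker, had 309 and 196 counts in the same pair of libraries and at most 31 in the other 6. The 4 plasma cell markers summed to 148 and 178 CPM there and to 96.0 to 141 CPM in the other 6 libraries, and their part in the Igha counts was not tested.

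The genes that join the segments were lower in cKO early LPre-B cells for the most part. Of 13 genes for recombination and end joining, 2 were higher and 8 lower than in Ctrl at that stage, and 2 were higher and 5 lower in sPre-B cells. Rag1, of the nuclease that cuts beside V, D and J segments, had 44.0 and 75.0 CPM in cKO against 409 and 385 CPM in early LPre-B cells of Ctrl mice (log2 -2.74 ± 0.25, adjusted p = 1.48e-04), and 1497 and 1612 CPM against 3508 and 2964 CPM in sPre-B cells (-1.06 ± 0.24, adjusted p = 0.00914, both edgeR). Rag2 had 36.5 and 48.6 CPM in cKO against 89.0 and 85.9 CPM in early LPre-B cells of Ctrl mice. Dntt, which adds bases at the joints, had 26.8 and 24.8 CPM against 272 and 240 CPM in the same groups. Paxx, an end-joining factor, was among the higher ones at 44.9 and 48.3 CPM against 10.9 and 9.72 CPM, as was Prkdc, the catalytic subunit of the DNA-dependent protein kinase. The median log2 fold change of the 13 genes was -0.57 in early LPre-B and -0.35 in sPre-B cells, against -0.06 and 0.01 over all genes.

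Of 15 regulators of the Igh locus, 0 were higher and 11 lower in cKO early LPre-B cells, and 1 was higher and 7 lower in cKO sPre-B cells. Over all genes 14.5% were higher and 16.9% lower in early LPre-B cells, and 19.8% higher and 14.9% lower in sPre-B cells. The median log2 fold change of the 15 genes was -0.46 in early LPre-B and -0.30 in sPre-B cells, against -0.06 and 0.01 over all genes. Ebf1, a factor that sets the B lineage, had 345 and 351 CPM in cKO against 432 and 522 CPM in Ctrl mice at the early LPre-B stage, and 471 and 501 CPM against 780 and 915 CPM in sPre-B cells. Pax5, needed for the contraction of the locus, had 269 and 276 CPM against 318 and 314 CPM in early LPre-B cells and missed the threshold in both genotype comparisons. With stage, 9 of the 15 were higher and 3 lower in Ctrl sPre-B cells, and 10 higher and 3 lower in cKO sPre-B cells.

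Across the 8 libraries the members fell into different patterns, given here as Pearson correlations of log2 CPM that rest on the differences between 4 groups sharing their libraries, with no test. Ighj3 and Ighj4 had a correlation of 0.99, Ighj1 and Ighj3 one of 0.55, and Ighd4-1 and Ighj3 one of -0.01. Among 12202 other genes with an average log2 CPM of at least 1, the most alike to Ighj2 was Ighm (0.998), followed by Dnajc16 and Arid3b. The most alike were Ly86, Sorcs2 and Serinc4 for Ighj1, Vamp2, Pik3r5 and Evl for Ighj3, and Smurf1, Maml2 and Dusp2 for Ighj4. For Ighd they were Psd, Itgad and Spns3, the first at 0.998. Ighd4-1 had the weakest likeness to any gene, with Cyb5rl at 0.957, Zfp385c at 0.923 and Arap2 at 0.913.

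By mean level, Ighj1 and Ighd shared the ascending order Ctrl early LPre-B, cKO early LPre-B, Ctrl sPre-B, cKO sPre-B, with no overlap between neighbours. Ighj3 and Ighj4 had the order cKO early LPre-B, Ctrl early LPre-B, cKO sPre-B, Ctrl sPre-B, again without overlap. Ighj2 ran from Ctrl early LPre-B through cKO early LPre-B, which overlapped, to cKO sPre-B and Ctrl sPre-B. Ighd4-1 alone had its highest mean in cKO early LPre-B cells (42.7 ± 1.29 CPM, SD, n = 2), with the Ctrl sPre-B libraries on either side of both cKO groups.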

How the data were processed

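RNA-seq libraries of early LPre-B and sPre-B cells, 2 in each of the 4 groups that the sample labels define, were used. The authors ran Trim Galore on paired-end reads and HISAT2 against mm10, ignored strand although the library kit was directional, and deposited raw counts per gene from featureCounts. Versions, gene annotation and options are not given in the sources used here. Of 27179 Entrez identifiers 25275 were named from RefSeq and 1904 were not, and 0 count columns were left unused. Totals are given with the results.

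The fit used edgeR 4.0.16 in R 4.3.3: expression filter by group (17700 genes kept, all 6 members among them), TMM factors (0.862 to 1.09), 1 mean per group over all 8 libraries, quasi-likelihood F test (two-sided), with p-values adjusted by Benjamini-Hochberg over all genes tested, called at an adjusted p under 0.05. The common biological coefficient of variation was 0.174. The code was tested on simulated data. Shares and ratios of counts within a library were given without a test. Alternatives were edgeR's likelihood-ratio test, DESeq2 1.42.0, median-ratio factors, scaling without 260 immunoglobulin genes, no filter, a replicate block, only the 4 libraries compared, and leaving out libraries. Named were the members, the listed constant genes and D segments, examples from the other lists, and the 3 genes most alike to each member. Members and lists were chosen with earlier results of these data known. A gene left out of the mature B cell markers is not reported here, and their counts and sums do not include it. Examples within lists were chosen after their values were seen.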

Additional observations from a re-analysis of the deposited data

Results flagged for a closer look

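The difference between stages, sPre-B minus early LPre-B, differed between the genotypes for 1 of the 6 members by edgeR's quasi-likelihood test of the interaction. For Ighd4-1 the difference in cKO minus that in Ctrl mice was -4.58 on the log2 scale (SE 0.85, adjusted p = 0.0269), with both Ctrl libraries higher and both cKO libraries lower at the sPre-B stage. The call was lost when any of the 6 libraries outside the Ctrl sPre-B group was left out (adjusted p = 0.0639 to 0.102, edgeR).

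Among 84 listed genes that are not members, 11 had an interaction at an adjusted p under 0.05 in the same edgeR test, where 4.24% of 17700 genes passed, and the lists were chosen with earlier results known. Calls over all genes fell from 750 to between 126 and 472 when any library but Ctrl sPre-B replicate 1 was left out, and these 11 genes were not refitted without a library. The log2 values, cKO minus Ctrl, were 2.83 for the constant gene Ighg2b, -0.75 for the processing gene Zfp318 and 0.62 for the regulator Foxo1. Genes of recombination and end joining had 1.68 (Rag1), 0.89 (Rag2), 2.59 (Dntt), -0.91 (Xrcc5) and -1.10 (Paxx). Marker genes had 1.41 (Vpreb1, of the surrogate light chain), 3.24 (Fcer2a) and 2.68 (Cxcr5). Groups of 2 libraries are too small for a test of a library that stands apart from its group.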

How the results depend on the processing

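Of 30 log2 fold changes (6 members in 5 tests), 21 kept their direction and their side of the threshold in every alternative run, among them all of the comparison of stages in Ctrl mice. No alternative of tool, test, scaling or filter reversed a member's direction. The members called stayed at 6, 5, 4, 3 and 1 in the 5 tests (stages in Ctrl, stages in cKO, genotypes in early LPre-B, genotypes in sPre-B, interaction) with the likelihood-ratio test, DESeq2, median-ratio factors and scaling without immunoglobulin genes. With a library left out they were 6, 5 to 6, 4 to 5, 2 to 4 and 0 to 1, where the remaining library of a group was assumed to vary like the other groups. Calls over all genes moved too in these fits, from 750 to between 126 and 902 for the interaction and from 5547 to between 2923 and 5355 for the genotypes in early LPre-B cells, and from 6134 to 3624 for those in sPre-B cells without cKO sPre-B replicate 1, so that a change in members called cannot be read as one of the members alone. The interaction had 1508 calls with the likelihood-ratio test, 1758 with DESeq2, 1575 without a filter and 92 without both Ctrl replicate 2 libraries. Without 1 library the Ighd4-1 difference between genotypes in sPre-B cells ranged from -1.66 to 0.74, and 2 interactions that were not called changed sign, that of Ighj3 between -0.22 and 0.093 and that of Ighd between -0.022 and 0.46. The difference of Ighd4-1 between stages in cKO mice, -1.13, passed the threshold without an expression filter (-1.14, edgeR adjusted p = 0.0171), where the cause was not tested.

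The labels do not say what a replicate number stands for. Deviations from the group means correlated across 17700 genes between same-numbered libraries by 0.395 (Ctrl, the 2 stages), 0.254 (cKO, the 2 stages), 0.155 (genotypes, early LPre-B) and 0.0858 (genotypes, sPre-B), and genes are not independent replicates. With a replicate block, 6, 5, 4, 4 and 1 members were called, the added one being Ighj1 between genotypes in sPre-B cells (0.25, edgeR adjusted p = 0.0375).

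The number of libraries, 2 in each group, limits the precision. For some J shares, such as Ighj3 in cKO early LPre-B cells, the counting intervals of both libraries overlapped.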
